A study of Homo sapiens with 6 samples.

Results

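Genes of the Notch pathway were read in SZ95 sebocytes after exposure to fine particulate matter: the receptors NOTCH1, NOTCH2 and NOTCH3, the ligands JAG1, JAG2 and DLL1, the target genes HES1, HEY1 and NRARP, and the coactivator gene MAML2. They were picked by gene symbol, and all 10 were among the 27685 genes of the read count table. SZ95 is an immortalized line of human sebaceous gland cells. In the PM2.5 group (n = 3), cells labelled WT received ambient particles with an aerodynamic diameter of under 2.5 μm, resuspended in 20% ethanol, at 100 μg/mL for 24 h. In the control group (n = 3), WT cells received the 20% ethanol vehicle for 24 h, and both groups were kept in the same phenol-red-free medium. Polyadenylated RNA was sequenced from a single cell line, so the model holds no neighbouring cell types of the gland. No label says whether the replicates were grown as separate cultures, and p-values measure the spread between these samples, which may be technical.

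Notch receptors are membrane proteins that are switched on by ligands of the Jagged and Delta families on a neighbouring cell. Binding lets ADAM proteases and then gamma-secretase cut the receptor, and the freed intracellular domain joins the DNA-binding protein RBPJ and a Mastermind coactivator such as MAML2 in the nucleus. The complex turns on HES and HEY genes, which encode repressors, and NRARP, which encodes a feedback inhibitor. In mouse skin, the pathway is known for its roles in epidermal differentiation, hair follicles and sebaceous glands.

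Library totals ran from 56460553 to 71080000 counts. Between libraries of different groups the chi-square per gene was 86.7 to 158, against 18.9 to 37.1 between libraries of the same group, where sampling noise alone would give about 1. Of the 13 sebocyte markers looked for, 11 were tested, with 5 higher and 4 lower in PM2.5 cells (81.8% called, beside 43.6% of all genes tested). The higher ones were SCD, FASN, FADS2, PPARG and ELOVL3, and the lower ones SOX9, KRT7, PRDM1 and MUC1. Of these, ELOVL3, MUC1 and PRDM1 were called in 11, 9 and 6 of the 15 alternative settings. AWAT2 was at 0 in all libraries, and MC5R was at or near 0. CYP1A1, the classical target of the aryl hydrocarbon receptor (AHR), was at 560.2 ± 32.0 CPM (read counts scaled to a common library total with edgeR's TMM factors) in PM2.5 cells and 3.56 ± 0.676 CPM in control cells (SD, n = 3 each). Over all 16049 genes tested, 3476 were higher and 3523 lower in PM2.5 cells at an adjusted p under 0.05, so that 49.7% of the called genes were higher. Scaled by library size alone, the same test gave 4770 higher and 2546 lower genes (65.2% higher). Summed endothelial markers (4 of 6 tested, 1 higher, 2 lower, mostly CDH5) ranged from 81.1 to 92.3 CPM in PM2.5 cells and from 183 to 207 CPM in control cells, while CLDN5 and TEK were at or near 0. Summed leukocyte markers (4 of 6 tested, 1 higher, mostly CD68) ranged from 106 to 117 CPM in PM2.5 cells and from 65.5 to 71.4 CPM in control cells, with CD3E at 0 and PTPRC near 0. For keratinocyte markers (6 of 8 tested, 2 higher, 3 lower, KRT1 and LOR near 0) the sum was 300.2 to 343 CPM in PM2.5 cells and 363 to 393 CPM in control cells. Fibroblast markers (3 of 7 tested, 2 higher, 1 lower, DCN and COL3A1 at or near 0) summed to 55.1 to 59.1 CPM in PM2.5 cells and 46.1 to 50.9 CPM in control cells. Melanocyte markers (2 of 5 tested, none called, MLANA and TYR at 0) summed to 41.7 to 45.7 CPM in PM2.5 cells and 38.3 to 42.0 CPM in control cells. Of the tested markers, 75% of the endothelial, 25% of the leukocyte, 83.3% of the keratinocyte and 100% of the fibroblast ones were called. Over all genes tested the share was 43.6%. The part of these markers in the results on Notch genes was not tested.

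Of the 10 Notch genes, 9 passed the filter on low counts and were tested; HEY1 did not pass. NOTCH3 and NRARP were higher in PM2.5 cells, NOTCH1, NOTCH2, HES1 and MAML2 were lower, and JAG1, JAG2 and DLL1 were not called. Calls are adjusted p values under 0.05 from edgeR's quasi-likelihood test. The 2 higher genes are 22.2% of the 9, beside 21.7% of all genes tested, and the 4 lower genes are 44.4%, beside 22.0%. In either direction 66.7% of the 9 were called, beside 43.6% of all genes tested. The PM2.5 libraries lay wholly above or below the control libraries for 7 of the 9 (77.8%), beside 56.3% of all genes. None of the 9 passed a fold change of 2 with an unadjusted p under 0.05 in edgeR, DESeq2 or limma-voom, although 7 had an unadjusted p under 0.05 in each tool; 5.62% of all genes passed. The median log2 fold change was -0.16 over the 9 genes and 0.00 over all genes tested. In bulk RNA, fewer cells of a kind and less RNA per cell cannot be told apart.

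**Figure D1:**
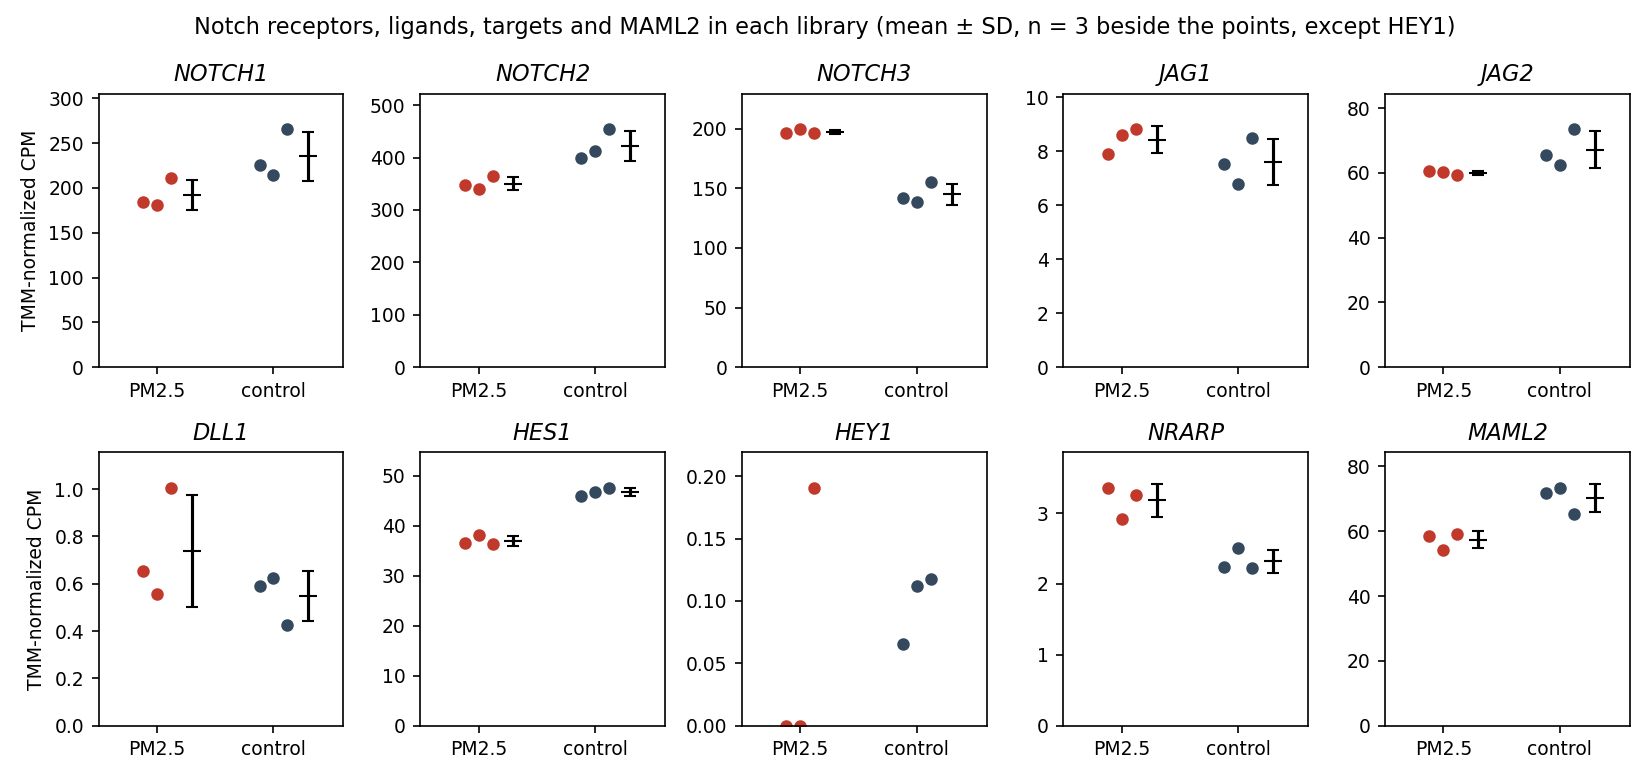
TMM-normalized CPM (vertical axes, from 0) of the 10 Notch genes in each of the 3 PM2.5 and 3 control libraries (points), with the mean and SD of a group as a bar beside its points, except for HEY1. All PM2.5 points lie above all control points for NOTCH3 and NRARP and below them for NOTCH1, NOTCH2, JAG2, HES1 and MAML2; HEY1 is at 0 in 2 PM2.5 libraries.

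The receptors moved in opposite directions. NOTCH3 (NCBI Gene ID 4854), a receptor best known from vascular smooth muscle and pericytes, was at 196, 199.6 and 196 CPM in the PM2.5 libraries, against 142, 139 and 155 CPM in the control libraries. Every PM2.5 library was above every control library, and the PM2.5 libraries differed less among themselves than the control libraries did. NOTCH3 averaged 198 ± 1.83 CPM in PM2.5 cells and 145 ± 8.80 CPM in control cells, a log2 fold change of 0.44 (edgeR adjusted p = 0.000468, SE 0.052), or 36.0% higher. It had the smallest adjusted p of the 9 genes tested.

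NOTCH1 (NCBI Gene ID 4851), which in mouse epidermis promotes differentiation, was at 184, 180.4 and 211 CPM in the PM2.5 libraries, against 226, 214 and 266 CPM in the control libraries. The groups did not overlap, but the highest PM2.5 library and the lowest control library were close. NOTCH1 was lower, at a log2 fold change of -0.29 (edgeR adjusted p = 0.0317, SE 0.091). The call was lost without PM2.5 replicate 1 (edgeR adjusted p = 0.103), without PM2.5 replicate 2 (0.11), without control replicate 3 (0.0659) and when scaled by library size alone (0.0772); over the 15 alternative settings its adjusted p ran from 0.00263 to 0.11, with the same sign in all of them.

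NOTCH2 (NCBI Gene ID 4853), a widely expressed receptor close to NOTCH1 in structure, was at 347, 340.0 and 364 CPM in the PM2.5 libraries, against 398, 413 and 454 CPM in the control libraries. All PM2.5 libraries were below all control libraries. The means were 350.1 ± 12.3 CPM in PM2.5 cells and 422 ± 28.9 CPM in control cells, and the log2 fold change was -0.27 (edgeR adjusted p = 0.00716, SE 0.058), or 17.0% lower. NOTCH2NL, a partial copy of NOTCH2 that may share reads with it, held counts equal to 9.39% of those of NOTCH2. It averaged 38.2 ± 1.54 CPM in PM2.5 cells and 39.6 ± 1.24 CPM in control cells and was not called (edgeR adjusted p = 0.469).

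**Figure D2:**
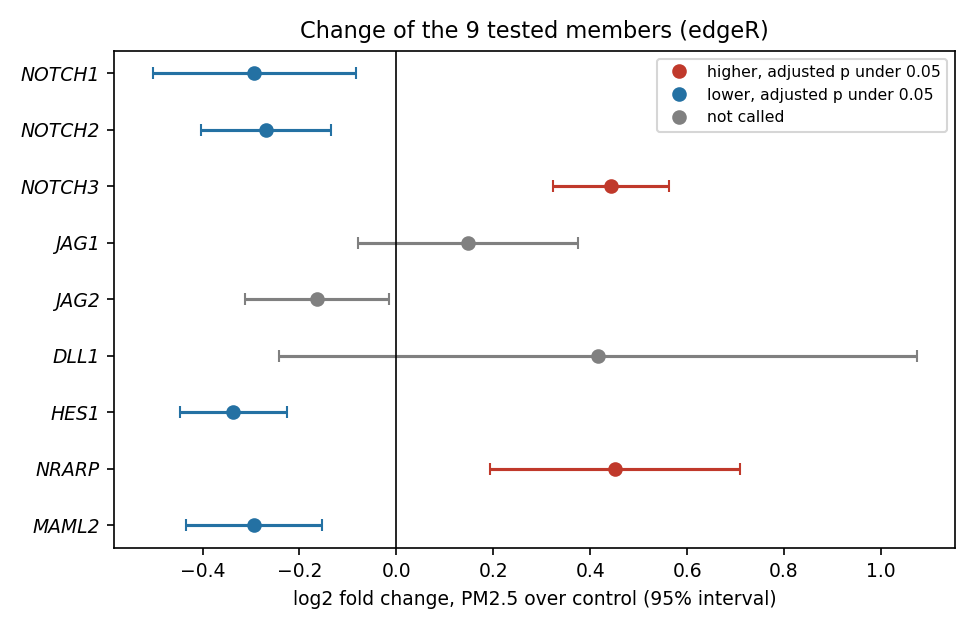
Log2 fold change of PM2.5 over control (horizontal axis, edgeR) for the 9 Notch genes tested, as a point with its 95% interval, colored by call. NOTCH3 at 0.44 and NRARP at 0.45 stand right of 0, while NOTCH1, NOTCH2, HES1 and MAML2 lie between -0.34 and -0.27; the intervals of JAG1 and DLL1 span 0.

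Divided by transcript length, the make-up of the receptors differed between the groups. NOTCH3 made up 31.1%, 31.9% and 29.3% of the summed CPM per kb of the 3 receptors in the PM2.5 libraries, against 21.6%, 21.3% and 20.8% in the control libraries. NOTCH2 took the largest share in every library, with a mean of 41.5% in PM2.5 cells and 46.9% in control cells. NOTCH1 averaged 27.8% in PM2.5 cells and 31.9% in control cells. NOTCH3 came before NOTCH1 in PM2.5 replicates 1 and 2 and after it in all 3 control libraries. In PM2.5 replicate 3 NOTCH3 and NOTCH1 were level, at 29.34% and 29.31%. Without division by length NOTCH1 stood above NOTCH3 in that library, at 27.3% against 25.5% of the summed CPM. The count ratio of NOTCH1 to NOTCH3, which no scaling of libraries can change, was 0.939, 0.904 and 1.07 in the PM2.5 libraries, against 1.59, 1.54 and 1.71 in the control libraries. The mean log2 of this ratio differed by -0.74 (PM2.5 minus control), and that of NOTCH2 to NOTCH3 by -0.71. Both differences gave p = 0.1 in a two-sided exact permutation test (0.175 adjusted over the 7 ratios tested), the smallest p that 3 against 3 libraries allow. By contrast the log2 ratio of NOTCH1 to NOTCH2 differed by -0.023, with overlapping groups (exact permutation p = 0.9), and by 0.014 without control replicate 3. Summed over the receptors, the level was 727, 720.0 and 771 CPM in the PM2.5 libraries, against 766, 766 and 875 CPM in the control libraries, and these ranges overlapped.

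**Figure D3:**
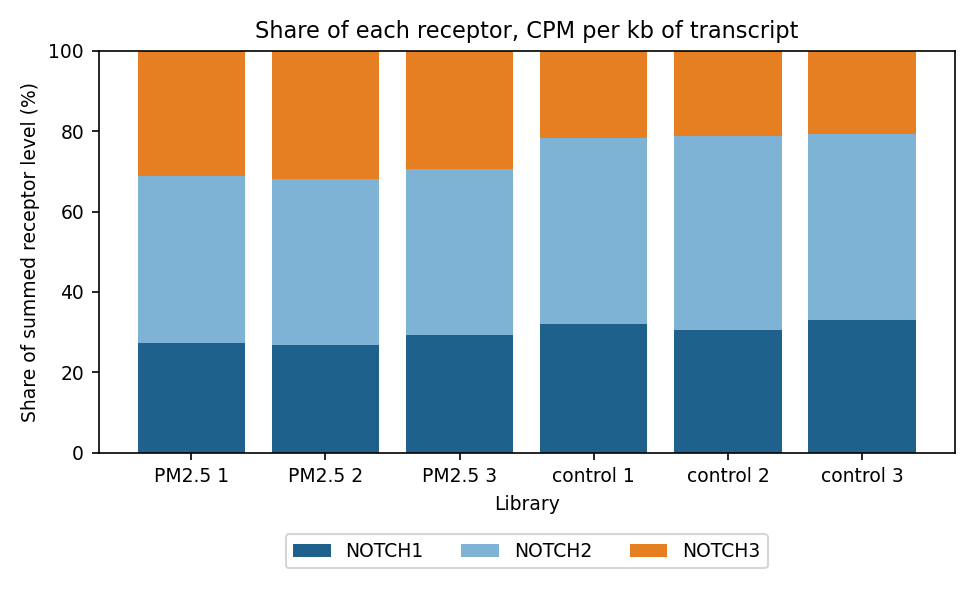
Share of NOTCH1, NOTCH2 and NOTCH3 (stacked bars, percent of their summed CPM per kb of transcript) in each library. The NOTCH3 part covers 29.3% to 31.9% in the PM2.5 libraries and 20.8% to 21.6% in the control libraries.

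None of the ligands was called. JAG2 (NCBI Gene ID 3714), a Jagged ligand, was at 60.4, 60.3 and 59.2 CPM in the PM2.5 libraries, against 65.6, 62.5 and 73.5 CPM in the control libraries. Its groups did not overlap, with control replicate 3 standing highest. The log2 fold change was -0.16 (95% interval -0.31 to -0.02, edgeR adjusted p = 0.0706). JAG2 was called lower without control replicate 2 (edgeR adjusted p = 0.0373) and in none of the other 14 settings, where the adjusted p reached 0.296. Its log2 fold change was -0.097 without control replicate 3 and -0.083 when scaled by library size alone.

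JAG1 (NCBI Gene ID 182), the other Jagged ligand, was at 7.88, 8.59 and 8.81 CPM in the PM2.5 libraries, against 7.54, 6.79 and 8.48 CPM in the control libraries. These ranges overlapped, and the log2 fold change was 0.15 (95% interval -0.08 to 0.37, edgeR adjusted p = 0.261). It was 0.071 without control replicate 2, 0.23 without control replicate 3 and 0.23 when scaled by library size alone, and JAG1 was called in none of the 15 settings (adjusted p from 0.0812 to 0.603). The ratio of JAG1 to JAG2 counts was 0.130, 0.143 and 0.149 in the PM2.5 libraries, against 0.115, 0.109 and 0.115 in the control libraries. This ratio was higher in every PM2.5 library, by 0.31 on the log2 scale, with the smallest p the design allows (exact permutation p = 0.1, adjusted 0.175).

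DLL1 (NCBI Gene ID 28514), a Delta ligand reported to mark stem cell clusters of human epidermis, was at a low level. Its counts were 40, 41 and 58 in the PM2.5 libraries, against 36, 39 and 29 in the control libraries. In CPM the groups overlapped, and the interval of the log2 fold change of 0.42 ran from -0.24 to 1.07 (95%, edgeR adjusted p = 0.273), so that no difference was detectable at this depth. The value was 0.15 without PM2.5 replicate 3, the library with the most counts, and 0.26 without control replicate 3, and over the 14 settings that tested DLL1 it ran up to 0.62, with no call (adjusted p from 0.155 to 0.676). DLL1 also overlaps FAM120B in the RefSeq annotation, a gene with a mean count of 2216, and whether counting used the strand is not given in the sources used here. The ratios of JAG1 to DLL1 and of JAG2 to DLL1 had exact permutation p-values of 0.5 and 0.2.

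The targets were likewise split. HES1 (NCBI Gene ID 3280), a basic helix-loop-helix repressor and the best known direct target of the pathway, was at 36.5, 38.1 and 36.4 CPM in the PM2.5 libraries, against 45.9, 46.7 and 47.6 CPM in the control libraries. The gap between the groups was wider than the spread within either. HES1 averaged 37.0 ± 0.986 CPM in PM2.5 cells and 46.7 ± 0.831 CPM in control cells, a log2 fold change of -0.34 (edgeR adjusted p = 0.00109, SE 0.048), or 20.8% lower. It was called in all 15 alternative settings.

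NRARP (NCBI Gene ID 441478), whose ankyrin repeat protein binds the nuclear Notch complex and limits it, went the other way at a low level. It was at 3.36, 2.92 and 3.26 CPM in the PM2.5 libraries, against 2.23, 2.51 and 2.22 CPM in the control libraries, with counts of 188 to 215 in PM2.5 cells and 136 to 157 in control cells. No PM2.5 library reached down to the control libraries. The log2 fold change was 0.45 (edgeR adjusted p = 0.0129, SE 0.11); without PM2.5 replicate 1 the adjusted p was 0.0511, and over the 15 settings it ran from 0.00629 to 0.0511. Set against each other within a library, HES1 to NRARP counts stood at 10.9, 13.1 and 11.2 in PM2.5 cells, against 20.6, 18.6 and 21.4 in control cells. On the log2 scale the groups differed by -0.79 (PM2.5 minus control, exact permutation p = 0.1, adjusted 0.175).

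HEY1 (NCBI Gene ID 23462), a repressor of the HEY family, had 0, 0 and 11 counts in the PM2.5 libraries, against 4, 7 and 8 counts in the control libraries. The highest and the lowest counts were both in the PM2.5 group. A count of 0 allows up to 0.0492 CPM in PM2.5 replicate 1 and 0.0407 CPM in PM2.5 replicate 2 (3 counts, counting error only). HEY1 was not tested in the main fit, and no ratio with it was compared between the groups.

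MAML2 (NCBI Gene ID 84441), a Mastermind coactivator, was at 58.4, 54.3 and 59.2 CPM in the PM2.5 libraries, against 71.8, 73.4 and 65.5 CPM in the control libraries. All PM2.5 libraries were below all control libraries. The log2 fold change was -0.29 (edgeR adjusted p = 0.00601, SE 0.061), or 18.4% lower.

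Promoter sequences, which show the letters around the starts of the called targets and of NOTCH3, were taken from RefSeq (GRCh38.p14), where 8 of the 10 genes matched. The 250 bases before the start were searched on both strands for 5 motifs: GTGGGAA (bound by RBPJ), CACGTG (E-box), CACGAG (N-box), CACGCG (class C site, bound by HES and HEY proteins) and TNGCGTG (bound by AHR with ARNT, and able to overlap CACGCG read on the other strand). Of 35116 promoters, 5.43% held the RBPJ motif, 6.34% the E-box, 5.58% the N-box, 9.72% the class C site and 4.52% the AHR motif. In the sequences below, capitals mark matches to any of these motifs on either strand, and the last base lies just before the start.
HES1, chr3:194135898-194136147, plus strand: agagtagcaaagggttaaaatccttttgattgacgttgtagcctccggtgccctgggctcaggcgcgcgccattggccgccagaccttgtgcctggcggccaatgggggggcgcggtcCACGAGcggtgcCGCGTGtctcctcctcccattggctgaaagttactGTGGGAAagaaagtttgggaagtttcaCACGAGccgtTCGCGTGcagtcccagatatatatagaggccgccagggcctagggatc
NOTCH3, chr19:15200996-15201245, minus strand: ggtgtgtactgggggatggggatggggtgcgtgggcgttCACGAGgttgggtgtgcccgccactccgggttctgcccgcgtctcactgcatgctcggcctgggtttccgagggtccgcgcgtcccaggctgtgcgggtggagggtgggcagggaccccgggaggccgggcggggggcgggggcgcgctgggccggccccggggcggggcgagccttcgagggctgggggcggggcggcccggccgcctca
NRARP, chr9:137302272-137302521, minus strand: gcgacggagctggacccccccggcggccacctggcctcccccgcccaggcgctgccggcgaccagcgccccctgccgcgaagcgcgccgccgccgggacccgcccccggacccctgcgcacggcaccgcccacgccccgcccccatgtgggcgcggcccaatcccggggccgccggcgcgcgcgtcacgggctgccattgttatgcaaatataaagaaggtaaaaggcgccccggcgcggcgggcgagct
In HES1 the RBPJ motif lay 85 to 79 bases before the start, N-boxes lay at 132 to 127 and 58 to 53, and class C sites on the other strand lay at 120 to 115 and 47 to 42. Its AHR match, at 48 to 42, overlaps the nearer class C site. In mouse, the Hes1 protein is known to bind N-boxes of its own promoter. The NOTCH3 window held an N-box at 211 to 206, and the NRARP window held none of the 5 motifs. Among the other genes matched, JAG2 had a class C site at 236 to 231, and NOTCH1, NOTCH2, JAG1 and MAML2 had no match.

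Levels of different genes were compared per kb of the longest matching transcript. In PM2.5 cells the order was NOTCH2 (30.7 ± 1.08 CPM per kb), HES1 (23.5 ± 0.625), NOTCH3 (22.8 ± 0.212), NOTCH1 (20.6 ± 1.77), JAG2 (10.3 ± 0.116), MAML2 (8.07 ± 0.367), NRARP (1.80 ± 0.131), JAG1 (1.42 ± 0.0818), DLL1 (0.233 ± 0.0744) and HEY1 (0.0277 ± 0.048) (SD, n = 3). In control cells it was NOTCH2 (37.0 ± 2.54 CPM per kb), HES1 (29.6 ± 0.527), NOTCH1 (25.3 ± 2.91), NOTCH3 (16.8 ± 1.02), JAG2 (11.5 ± 0.969), MAML2 (9.88 ± 0.594), NRARP (1.31 ± 0.0917), JAG1 (1.28 ± 0.143), DLL1 (0.172 ± 0.0333) and HEY1 (0.0428 ± 0.0124). HES1 at 23.1 to 24.2, NOTCH3 at 22.7 to 23.0 and NOTCH1 at 19.4 to 22.7 CPM per kb nearly touched in the PM2.5 libraries. NRARP and JAG1 overlapped in the control libraries but not in the PM2.5 libraries.

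The genes most like NOTCH3 and HES1 across the 6 libraries were sought among 13789 genes of at least 1 CPM, by the root mean square (RMS) difference of centred log2 CPM. For NOTCH3 they were ITPRIP (RMS 0.0117), SH3PXD2A (0.0206), CIB2 (0.0237) and GRTP1 (0.0255), whose log2 fold changes ran from 0.44 to 0.46. For HES1 they were HOXB7 (RMS 0.0159), NBL1 (0.0193), ACP1 (0.023), CD9 (0.0241) and EIF4EBP2 (0.0246), with log2 fold changes between -0.34 and -0.32.

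Other genes of the pathway were read as 7 lists holding 102 genes, of which 93 were tested. Of these 11 were higher and 30 lower in PM2.5 cells, or 44.1% called beside 43.6% of all genes tested. By direction, 21.7% of all genes tested were higher and 22.0% were lower. The median log2 fold change of the 93 genes was -0.04. When only library size was used for scaling, 21 were higher. The lists were counted and not tested as sets.

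**Figure D4:**
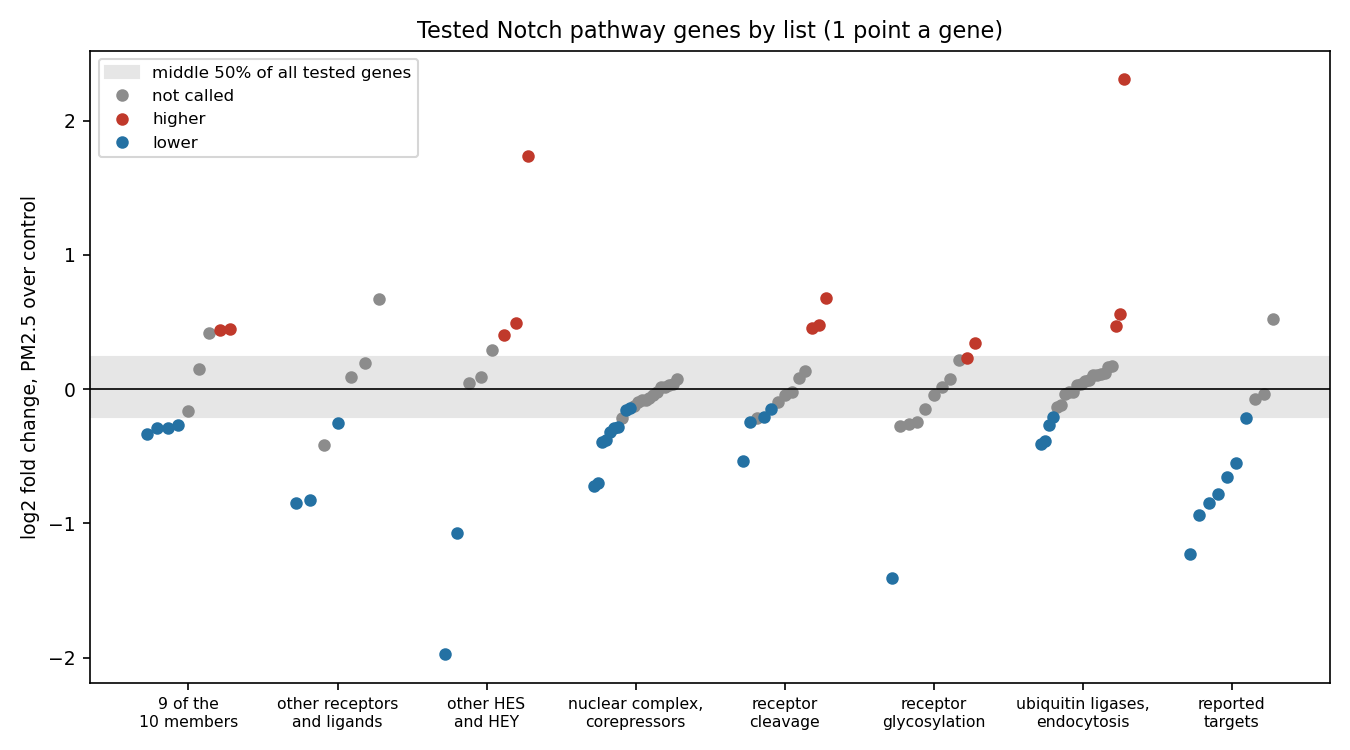
Log2 fold change of PM2.5 over control (vertical axis) of each tested Notch pathway gene (1 point a gene), by list, colored by call; the grey band holds the middle 50% of all tested genes, from -0.21 to 0.24. NEURL1 at 2.31 and HEYL at 1.73 are the highest points and HEY2 at -1.97 is the lowest.

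Among the other HES and HEY factors, 8 of 10 were tested, with 3 higher and 2 lower (62.5% called, beside 43.6% of all genes). HEYL, the HEY family member least like HEY1, was at 1.69, 1.82 and 1.42 CPM in the PM2.5 libraries, against 0.427, 0.463 and 0.588 CPM in the control libraries. Its groups were well apart, with a log2 fold change of 1.73 (edgeR adjusted p = 0.000362, SE 0.19). HEY2, a repressor of heart and vessels, was at 0.0983, 0.271 and 0.121 CPM in the PM2.5 libraries, against 0.493, 0.719 and 0.808 CPM in the control libraries. It was lower, at a log2 fold change of -1.97 (edgeR adjusted p = 0.0046, SE 0.39), and at this level it was not tested where a mean count of at least 50 was asked. The related clock repressors moved apart: BHLHE41 (DEC2) averaged 19.8 ± 1.54 CPM in PM2.5 cells and 41.7 ± 0.206 CPM in control cells (log2 fold change -1.07, edgeR adjusted p = 3.78e-05), and BHLHE40 (DEC1) averaged 215 ± 6.80 CPM in PM2.5 cells and 162 ± 7.44 CPM in control cells (0.41, adjusted p = 0.000585). HES6, which in mouse opposes Hes1, averaged 4.51 ± 0.497 CPM in PM2.5 cells and 3.20 ± 0.153 CPM in control cells (0.49, adjusted p = 0.00841). HES2, HES4 and HES7 were not called, with log2 fold changes from 0.05 to 0.29.

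**Figure D5:**
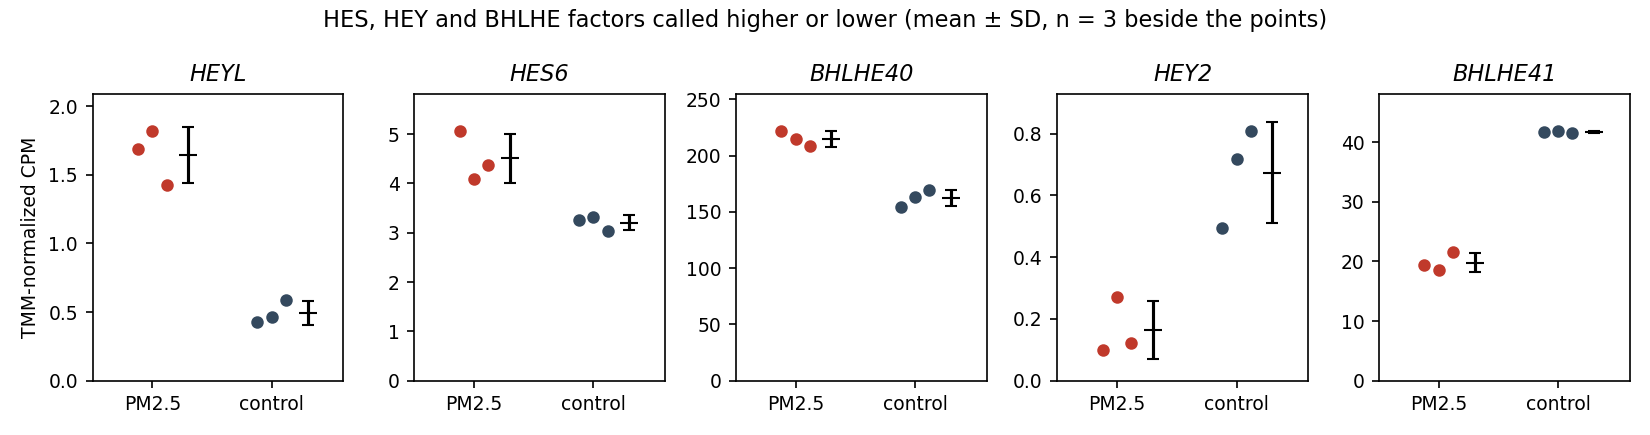
TMM-normalized CPM (vertical axes, from 0) of the 5 other HES, HEY and BHLHE factors that were called, in each PM2.5 and control library (points), with the mean and SD of a group beside its points (n = 3). HEYL, HES6 and BHLHE40 lie higher in PM2.5 libraries, HEY2 and BHLHE41 lower, with no overlap.

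Of 11 further receptors and ligands, 7 were tested, and 3 were lower and none higher. None was higher at an unadjusted p under 0.05, or in DESeq2 or limma-voom. The 3 lower genes are 42.9% of the 7, beside 22.0% of all genes called lower and 43.6% called in either direction. CCN3, listed under its older symbol NOV and encoding a matricellular protein reported to bind NOTCH1, was at 4.85, 5.51 and 7.56 CPM in the PM2.5 libraries, against 10.6, 10.7 and 10.8 CPM in the control libraries (log2 fold change -0.85, edgeR adjusted p = 0.00251). DLK2, a Delta-like protein that lacks the DSL domain of the classical ligands, averaged 19.5 ± 1.95 CPM in PM2.5 cells and 34.5 ± 3.83 CPM in control cells (-0.82, adjusted p = 0.00055). MFAP2, a microfibril protein, was lower, at a log2 fold change of -0.25 (adjusted p = 0.0129). NOTCH4, the remaining receptor, was at 0.376 ± 0.0397 CPM in PM2.5 cells and 0.506 ± 0.266 CPM in control cells and was not called.

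In the nuclear complex and its corepressors, 22 of 23 genes were tested, and 9 were lower and none higher (none also at an unadjusted p under 0.05 and in DESeq2 or limma-voom; 1 when scaled by library size alone). The 9 lower genes are 40.9% of the 22, beside 22.0% of all genes called lower and 43.6% called in either direction. Over the alternative settings the lower genes of this list numbered 7 to 9. The median log2 fold change of the list was -0.11. The Groucho-related corepressors TLE3 and TLE1, which HES proteins recruit, had log2 fold changes of -0.70 and -0.72 (edgeR adjusted p = 0.000241 and 0.000374). TLE1 averaged 39.9 ± 2.85 CPM in PM2.5 cells and 65.8 ± 6.03 CPM in control cells. The corepressor genes SPEN, whose protein binds RBPJ, and CTBP2 were lower, at log2 fold changes of -0.39 and -0.38 (adjusted p = 0.000549 and 0.000735). RBPJ itself, named after its value was seen, averaged 74.96 ± 0.781 CPM in PM2.5 cells and 73.3 ± 5.91 CPM in control cells and was not called (log2 fold change 0.03, edgeR adjusted p = 0.706). The other Mastermind genes, also named afterwards, were MAML1, which was lower, at a log2 fold change of -0.29 (adjusted p = 0.00452), and MAML3, which was not called.

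All 13 genes of receptor cleavage were tested, with 3 higher and 4 lower (53.8% called, beside 43.6% of all genes). The tetraspanins that escort ADAM10 differed in direction: TSPAN33 averaged 26.8 ± 1.18 CPM in PM2.5 cells and 16.7 ± 1.75 CPM in control cells (log2 fold change 0.68, edgeR adjusted p = 0.000592), and TSPAN14 averaged 136 ± 12.1 CPM in PM2.5 cells and 197 ± 9.19 CPM in control cells (-0.53, adjusted p = 0.000764). Subunits of gamma-secretase did as well. APH1B was higher by a log2 fold change of 0.47 (adjusted p = 0.00061) and PSEN2 by 0.46 (0.00161), while PSENEN was lower at -0.24 (0.0229). ADAM17, a protease that can cut Notch receptors, was lower at -0.15 (0.0301). PSENEN was called in 10 of the 15 alternative settings (adjusted p from 0.00908 to 0.0995) and ADAM17 in 6 (0.00805 to 0.275). In this list 2 genes were lower in place of 4 without PM2.5 replicate 1, PM2.5 replicate 3, control replicate 1 or control replicate 2. The number was also 2 when scaled by library size alone.

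Of the 11 genes of receptor glycosylation, all tested, 2 were higher and 1 lower (27.3% called, beside 43.6% of all genes). LFNG, the Fringe enzyme that extends sugars on Notch and changes which ligands it answers to, was at 3.13, 2.56 and 3.59 CPM in the PM2.5 libraries, against 7.82, 7.55 and 9.11 CPM in the control libraries. It was far below the control libraries in every PM2.5 library, with a log2 fold change of -1.41 (edgeR adjusted p = 0.000218, SE 0.14). The other Fringe genes, MFNG and RFNG, named after their values were seen, had log2 fold changes of -0.24 and 0.21 and were not called. KDELC1 and KDELC2 (POGLUT2 and POGLUT3), which add glucose to Notch repeats, were higher by log2 fold changes of 0.23 and 0.34 (adjusted p = 0.0187 and 0.0191). KDELC1 was called in 12 of the 15 alternatives (adjusted p from 0.00533 to 0.0593) and KDELC2 in 13 (0.00226 to 0.077). Without PM2.5 replicate 1, PM2.5 replicate 2, control replicate 1 or control replicate 2, 1 gene of the list was higher. Without PM2.5 replicate 3 or control replicate 3, 2 were lower. The lower genes also numbered 2 in DESeq2, in limma-voom and with the replicate block.

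Of 23 genes for ubiquitin ligases and endocytosis, 22 were tested, with 3 higher and 4 lower (31.8% called, beside 43.6% of all genes). NEURL1, a ligase that acts on Notch ligands, was at 15.2, 12.7 and 15.2 CPM in the PM2.5 libraries, against 3.24, 3.02 and 2.47 CPM in the control libraries. Its log2 fold change of 2.31 (edgeR adjusted p = 2.73e-05, SE 0.12) was the largest rise among the 93 genes. MIB1, the main ligase for ligand endocytosis, averaged 113 ± 6.57 CPM in PM2.5 cells and 81.2 ± 7.98 CPM in control cells (0.47, adjusted p = 0.00223). NEDD4 was called higher (0.56, adjusted p = 0.0218) although its groups overlapped, and it lost the call without PM2.5 replicate 2 (0.0711), PM2.5 replicate 3 (0.0587), control replicate 1 (0.0674) or control replicate 2 (0.0725), within a range of 0.00596 to 0.0725 over the settings. Lower were the Deltex gene DTX4 (log2 fold change -0.41, adjusted p = 0.00156), WWP2 (-0.27, 0.00712), the kinase gene AAK1 (-0.21, 0.00711) and NEURL1B (-0.38, 0.0177). NEURL1B lost its call without PM2.5 replicate 1 (adjusted p = 0.0614, range over the alternatives 0.000624 to 0.0614). The higher genes of this list numbered 9 when scaled by library size alone, 6 with upper-quartile scaling and 5 without control replicate 3.

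Among 11 genes reported as Notch targets outside the HES and HEY families, 10 were tested, and 7 were lower and none higher (none also at an unadjusted p under 0.05 and in DESeq2 or limma-voom). The 7 lower genes are 70.0% of the 10, beside 22.0% of all genes called lower and 43.6% called in either direction. The median log2 fold change of the 10 was -0.60. MYC, a growth regulator, averaged 17.6 ± 2.13 CPM in PM2.5 cells and 41.2 ± 3.64 CPM in control cells (log2 fold change -1.23, edgeR adjusted p = 0.000127). SOX9, a transcription factor that is also on the sebocyte marker list, averaged 38.4 ± 1.62 CPM in PM2.5 cells and 69.2 ± 0.133 CPM in control cells (-0.85, adjusted p = 3.46e-05). GATA3 and SNAI2, transcription factors of epithelial cells, were lower, at log2 fold changes of -0.78 and -0.94 (adjusted p = 0.00011 and 0.00146). These genes answer to many other signals, and the part of Notch in their levels was not tested.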

How the data were processed

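The authors deposited one table of raw read counts per gene for 3 PM2.5 and 3 control libraries, with symbols and NCBI Gene IDs. Per the labels, libraries were made with a stranded mRNA kit, and the submitters' processing notes name hg19, the aligner HISAT2 2.0.5, the trimmer Trimmomatic 0.32, and also StringTie 1.3.3b and DESeq2. How reads were counted is not given in the sources used here. One column name with an extra hyphen was read as PM2.5 replicate 1.

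Counts were tested in R 4.3.3 with edgeR 4.0.16 (filterByExpr, TMM scaling, glmQLFit without its legacy option, glmQLFTest, two-sided), which kept 16049 of 27685 genes, with Benjamini-Hochberg adjustment over all of them. Levels were computed as CPM with TMM factors and are given as the mean and SD of a group. The SE is the absolute log2 fold change divided by the square root of F. Alternatives were DESeq2 1.42.0, limma-voom (limma 3.58.1), the legacy fit, scaling by relative log expression, by the upper quartile or by library size alone, leaving all genes in, asking for a mean count of 50 or more, a replicate block and each library left out. Transcript lengths came from GENCODE transcripts. Scripts were tested on simulated data.

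The 10 genes and the lists were chosen with earlier results of these data known. Up to 4 called genes per list and direction were named, by adjusted p, and every gene of a count of 5 or fewer; for the called genes of smallest adjusted p that rose and fell, the 5 most similar genes were named. Genes said to be named after their values were seen, NOTCH4, and the uncalled HES genes lie outside this rule. Some genes that the rule names are left out here.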

Additional observations from a re-analysis of the deposited data

How the results depend on the processing

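The calls of NOTCH2, NOTCH3, HES1 and MAML2 held in all 15 alternatives, and the signs of the 9 genes tested held in each alternative that tested them. Leaving out one library at a time, the number of higher Notch genes ran from 1 to 2 (1 without PM2.5 replicate 1) and of lower ones from 3 to 5; NOTCH1 ranged from -0.36 to -0.20 in log2 fold change over all alternatives. With library size as the only scaling, 21 of the other pathway genes were higher, against 11. The log2 difference of the NOTCH1 to NOTCH2 ratio was -0.023, and leaving out one library it ran from -0.074 (without control replicate 2) to 0.014 (without control replicate 3). The cause was not tested. Same-numbered PM2.5 and control libraries deviated together by correlations of -0.003, 0.079 and 0.089. Between differently numbered libraries the correlations ran from -0.134 to 0.059. All were small, and the numbers were not taken as pairs. With the replicate number as a block, the Notch genes called numbered 2 higher and 4 lower. The other pathway genes then stood at 12 higher and 31 lower, and all genes at 3573 higher and 3658 lower. The edgeR adjusted p of NOTCH1 was 0.00263 with the block and 0.0317 without it. HEY1 was tested only without the filter on low counts (log2 fold change -0.76, adjusted p = 0.645). Depth limits DLL1 and HEY1, whose counts were at most 58 and 11 in any library.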

Other observations

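Among the genes of receptor cleavage that were not called, APH1A, a gamma-secretase subunit, was at 181, 182 and 106 CPM in the PM2.5 libraries, against 114, 108 and 205 CPM in the control libraries. The libraries of either group thus fell on both sides, with PM2.5 replicate 3 near control replicates 1 and 2, and control replicate 3 near PM2.5 replicates 1 and 2. ADAM10, the main protease of ligand-bound Notch, was at 219, 219.6 and 156 CPM in the PM2.5 libraries, against 215, 221 and 256 CPM in the control libraries. PM2.5 replicate 3 was the lowest library for both genes and control replicate 3 the highest. APH1A and ADAM10 were chosen after their values were seen. DLL4, a Delta ligand, was at 0.697 ± 0.200 CPM in PM2.5 cells and 0.432 ± 0.126 CPM in control cells and was not called (log2 fold change 0.67, edgeR adjusted p = 0.112).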
